A study of Mus musculus with 2 samples.

Results

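The 39 Hox cluster genes of the mouse were followed in smooth muscle cells (SMCs) of the thoracic aorta. All features whose symbol was Hoxa, Hoxb, Hoxc or Hoxd plus a number were taken, which gave 39 of 28000 features: 11 Hoxa, 10 Hoxb, 9 Hoxc and 9 Hoxd genes. They were described in 1692 of 2095 control cells and 1919 of 2097 knockout cells, those with at least 5 eGFP molecules, at least 500 genes and at most 10% of molecules from mitochondrial genes. RNA of single cells had been captured in droplets, in 1 library per genotype and 2 in all, from male C57BL/6 mice aged 24 weeks. Both genotypes had Myh11-CreERT2, which is a recombinase under a smooth muscle promoter that tamoxifen activates, and the mT/mG reporter, which turns on membrane eGFP in cells where the recombinase has acted. Control mice were Tsc1+/+, knockout (KO) mice were Tsc1fl/fl and are labelled Tsc1-/-, and both received tamoxifen at 1.5 weeks. Cells were sorted for GFP. The sources used here do not state how many aortas were pooled or from which segment a cell came.

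Hox proteins are homeodomain transcription factors that give cells their position along the head-to-tail axis. Their genes lie in 4 clusters in which paralogs with low numbers are used towards the head and paralogs with high numbers further back, and adult cells often keep part of the pattern of the place where their ancestors arose. The SMCs of the arch come largely from cardiac neural crest, which passes through pharyngeal arches where paralogs up to group 3 are used, while those of the descending aorta come from mesoderm at trunk levels. Dlx5, Dlx6 and Msx2, homeobox genes of arch neural crest, were used here to split cells: a cell with at least 2 molecules of the 3 genes together was called Dlx/Msx-positive, and any other Dlx/Msx-low. No Hox gene entered that split, and no label gives the position of a cell.

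With 1 library per genotype no test between genotypes was possible, so no p-value is given. Counts are of unique molecular identifiers (UMIs, each standing for 1 captured RNA molecule), and levels are CPM, the UMIs of a gene per 1000000 UMIs of a group of cells. Intervals are exact 95% intervals for counting error, and the spread between animals is not in them. The control cells held 20011501 UMIs in all (median 11665 per cell) and the KO cells 30778165 (median 15012). All 8 SMC markers were at 50 CPM or more in control cells and 6 of 8 in KO cells, and their summed level was 37570 and 18332 CPM. Summed markers of fibroblasts stood at 482 and 1044 CPM, those of pericytes at 858 and 378 CPM, and those of macrophages at 14.6 and 13.6 CPM. The targeted gene, Tsc1, had 9.54 CPM (8.24 to 11.0) in control and 8.54 CPM (7.54 to 9.64) in KO cells. The counts do not say which exons these molecules came from, so they do not check the deletion. The libraries shared 16 cell barcodes.

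Aortic SMCs of both libraries held the low paralogs of the Hoxa and Hoxb clusters and almost nothing else. Of the 39 genes, 15 had no UMI in either library, 9 had 1 to 3 UMIs in all, 7 had 4 to 100, and 8 had over 100. Among those 8 were Hoxa2, Hoxa3, Hoxa4, Hoxa5, Hoxb2, Hoxb3 and Hoxb4, and all 8 made up 96.1% of the 5371 Hox UMIs. The Hoxa cluster gave 56.0% of Hox UMIs in control and 59.5% in KO cells, and the Hoxb cluster 43.0% and 39.6%. The Hoxc cluster had 0 UMIs in control cells, which allows up to 0.150 CPM, and 4 UMIs in KO cells, from Hoxc6, Hoxc9 and Hoxc13. The Hoxd cluster had 26 and 18 UMIs, of which Hoxd4 held 25 and 7.

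Paralog groups 1 to 3, the groups of hindbrain and pharyngeal arches, made up 75.6% (74.0 to 77.3) of the Hox UMIs of control cells. Groups 4 and 5, of neck and upper trunk levels, made up 23.8% (22.2 to 25.5), and groups 6 to 13 held 14 of 2672 UMIs, or 0.524% (0.287 to 0.878). Along the Hoxa cluster the counts stopped between neighbours. Hoxa5 had 273 and 381 UMIs in control and KO cells, whereas the adjacent Hoxa6 had none in either, and Hoxa7 beyond it had 3 and 22. On the Hoxb cluster the decline was gradual, from 180 and 269 UMIs for Hoxb4 to 27 and 58 for Hoxb5, 7 and 22 for Hoxb6 and 2 and 12 for Hoxb7.

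**Figure D1:**
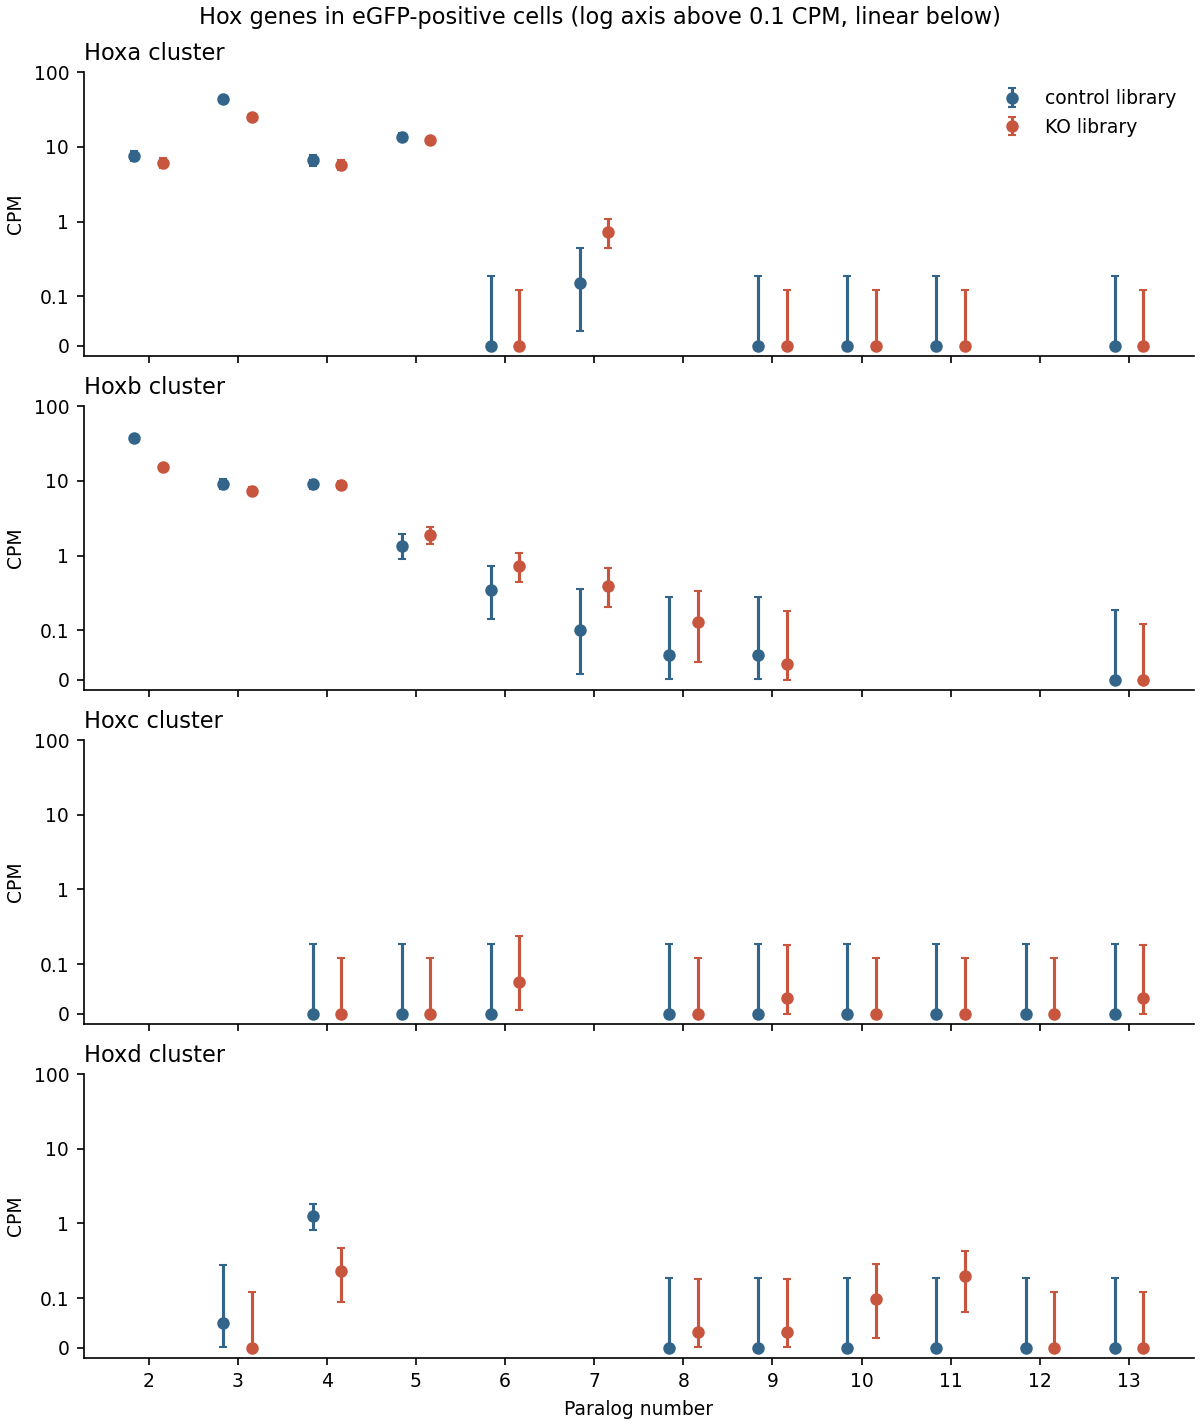
CPM of the Hox genes from paralog 2 on, by paralog number in the 4 clusters, in control (blue) and KO (red) eGFP-positive cells, with exact 95% Poisson intervals as bars; the axis is logarithmic above 0.1 CPM and linear below. The Hoxa points drop from paralog 5 to Hoxa6 at 0, the Hoxb points decline from paralog 5 on, and nearly all points of the Hoxc cluster lie at 0.

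Hoxa5 and Hoxa6 lie next to each other on the minus strand of chromosome 6 in build mm10, Hoxa5 at chr6:52201754-52204587 and Hoxa6 at chr6:52206288-52208722. The windows around their starts (250 bases before to 50 after, RefSeq, build GRCm38.p6, to which mm10 belongs) are shown because they stand on the 2 sides of that step. The windows of Hoxb4, which had UMIs in both libraries, and Hoxc4, which had none in eGFP-positive cells, are given beside them. CpG dinucleotides are in capitals, and each sequence reads 5′ to 3′ on the strand of its gene, over chr6:52204538-52204837 (minus), chr6:52208623-52208922 (minus), chr11:96318017-96318316 (plus) and chr15:103034145-103034444 (plus).
Hoxa5: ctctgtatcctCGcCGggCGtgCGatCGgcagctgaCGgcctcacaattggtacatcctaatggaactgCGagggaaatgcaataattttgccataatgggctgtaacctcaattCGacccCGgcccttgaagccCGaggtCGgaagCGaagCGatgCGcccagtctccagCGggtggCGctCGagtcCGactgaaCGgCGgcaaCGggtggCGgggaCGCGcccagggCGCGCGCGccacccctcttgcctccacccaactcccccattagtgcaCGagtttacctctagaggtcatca
Hoxa6: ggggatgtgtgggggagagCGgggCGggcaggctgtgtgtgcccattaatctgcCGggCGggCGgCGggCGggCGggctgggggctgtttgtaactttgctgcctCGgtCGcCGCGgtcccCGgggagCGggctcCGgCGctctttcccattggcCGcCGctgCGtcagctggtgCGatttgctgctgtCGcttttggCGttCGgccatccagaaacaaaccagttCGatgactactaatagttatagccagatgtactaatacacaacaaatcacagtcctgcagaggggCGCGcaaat
Hoxb4: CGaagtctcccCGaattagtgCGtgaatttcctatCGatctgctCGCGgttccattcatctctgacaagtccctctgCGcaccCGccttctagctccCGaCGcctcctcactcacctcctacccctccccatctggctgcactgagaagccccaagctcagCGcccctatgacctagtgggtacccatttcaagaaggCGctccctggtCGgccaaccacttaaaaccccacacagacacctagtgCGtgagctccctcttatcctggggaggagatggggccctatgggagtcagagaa
Hoxc4: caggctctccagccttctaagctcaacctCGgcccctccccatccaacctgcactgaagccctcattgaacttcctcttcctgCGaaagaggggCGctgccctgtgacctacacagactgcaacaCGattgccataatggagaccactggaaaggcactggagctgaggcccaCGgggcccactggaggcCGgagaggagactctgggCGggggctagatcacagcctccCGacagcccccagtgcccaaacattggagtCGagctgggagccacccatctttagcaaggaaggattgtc
The Hoxa5 window held 29 CpGs and the Hoxa6 window 26, against a median of 7 over all 32851 windows of that length. At least as many CpGs were found in 12.9% and 16.9% of all windows. Both sides of the step are thus CpG-rich, while Hoxb4, with 14 CpGs, and Hoxc4, with 9, are less so. Of the 39 genes, 22 had a window, 24 windows in all. The hexamer AGGTCA, which retinoic acid receptors recognise, was present on either strand in 7 of the 24 windows (29.2%), those of Hoxa5, Hoxb4 and Hoxc4 among them and not that of Hoxa6, and in 16.3% of all windows. TGACAG, which MEIS factors recognise, was found in 2 of 24 (8.33%), those of Hoxa2 and Hoxa3, and in 19.2% of all windows. These letter matches are descriptions and not binding sites.

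Summed over all 39 genes, the Hox level of KO cells was lower than that of control cells. The sums were 134 CPM (2672 UMIs) in control and 87.7 CPM (2699 UMIs) in KO cells, a KO to control ratio of 0.657 (0.622 to 0.693). Per cell this was a mean of 1.58 and 1.41 UMIs. The difference lay in the low paralogs: groups 1 to 3 together were at 101 CPM in control and 56.3 CPM in KO cells, a ratio of 0.557 (0.522 to 0.594). Groups 4 and 5 were at 31.8 and 28.9 CPM, a ratio of 0.909 (0.821 to 1.01), whose interval includes 1. The 2 intervals do not overlap. The split is also independent of the total, since groups 1 to 3 were 75.6% of Hox UMIs in control and 64.2% (62.3 to 66.0) in KO cells.

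Taken paralog by paralog, group 2 had a KO to control ratio of 0.481 (0.435 to 0.533). Group 3 stood at 0.617 (0.566 to 0.673), group 4 at 0.872 (0.756 to 1.01) and group 5 at 0.951 (0.820 to 1.11). Groups 2 and 3, which hold most UMIs of groups 1 to 3, were thus lower in KO cells by more than counting error. Names such as low and trunk-level stand here for paralog numbers and not for the position of a cell.

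**Figure D2:**
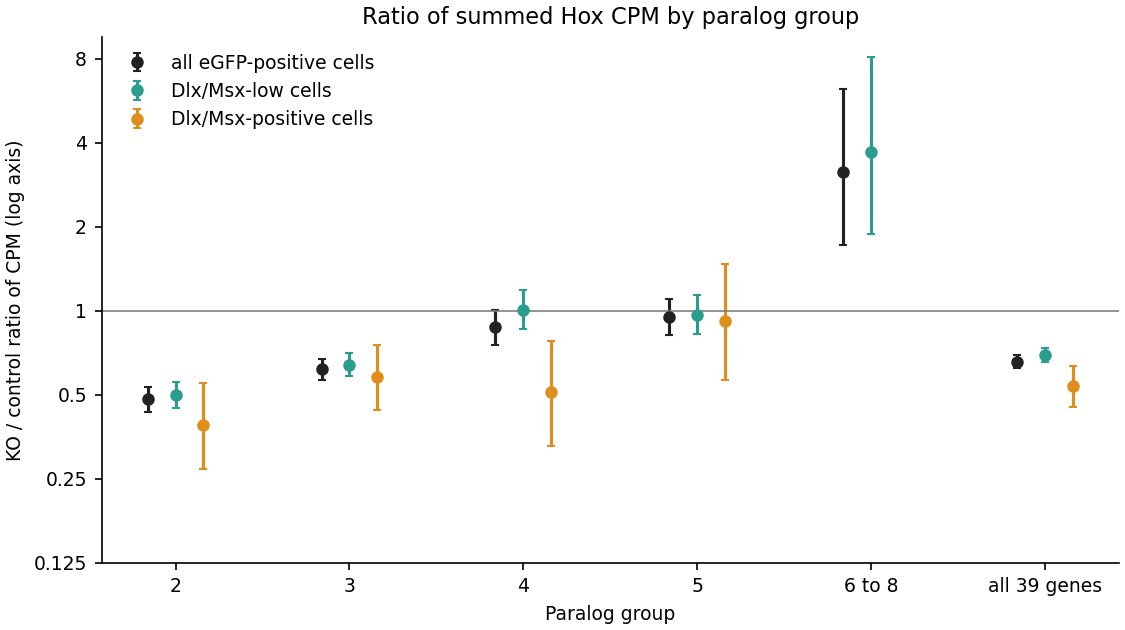
KO to control ratio of summed CPM (log axis) for paralog groups 2 to 5, groups 6 to 8 and all 39 genes, in all eGFP-positive cells (black), Dlx/Msx-low cells (green) and Dlx/Msx-positive cells (orange); bars are exact 95% intervals for counting error, and the 4 UMIs of groups 6 to 8 in positive cells are not drawn. In all cells the ratio is 0.481 for group 2, 0.951 for group 5 and 3.15 for groups 6 to 8.

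Hoxa3 and Hoxb2 carried that difference. Hoxa3, which patterns the pharyngeal arch derivatives including the thymus and carotid body, had most UMIs of all members in both libraries, with 44.0 CPM (880 UMIs) in control and 25.4 CPM (783 UMIs) in KO cells. Its ratio was 0.579 (0.525 to 0.638). Hoxb2, a gene of the hindbrain and the arches, had 37.4 CPM (749 UMIs) in control and 15.5 CPM (478 UMIs) in KO cells, a ratio of 0.415 (0.369 to 0.466). The intervals of the 2 ratios do not overlap, and Hoxb2 differed more.

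Hoxa5, a gene of the neck and lung levels, had 13.6 CPM (12.1 to 15.4) and 12.4 CPM (11.2 to 13.7), with a ratio of 0.907 (0.775 to 1.06). Hoxb4 stood at 8.99 and 8.74 CPM, a ratio of 0.972 (0.802 to 1.18). Neither differed between libraries beyond counting error, and the intervals bound any difference to less than 1.5-fold.

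Hoxa2, Hoxa4 and Hoxb3 had ratios between those of Hoxa3 and Hoxb4. Hoxa2, the gene that sets the identity of the second pharyngeal arch, had 7.60 CPM in control and 6.14 CPM in KO cells (ratio 0.808, 0.650 to 1.01). Hoxa4 had 6.60 and 5.72 CPM (0.867, 0.688 to 1.09), and Hoxb3 had 9.04 and 7.31 CPM (0.808, 0.662 to 0.988). Hoxd4 was the only Hoxd gene with over 10 UMIs and had 1.25 and 0.227 CPM, a ratio of 0.182 (0.0665 to 0.433) on 25 and 7 UMIs, further from 1 than that of Hoxb2. Hoxb5 lay on the other side, with 1.35 and 1.88 CPM and a ratio of 1.40 (0.870 to 2.29) whose interval includes 1.

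Paralogs of 1 group did not move alike. Hoxb2 made up 83.1% (80.5 to 85.5) of the Hoxa2 and Hoxb2 UMIs in control cells and 71.7% (68.1 to 75.1) in KO cells. Hoxa3 made up 82.9% (80.5 to 85.1) of group 3 UMIs in control and 77.7% (75.0 to 80.2) in KO cells. By the rule that a gene is measured at a mean of at least 10 CPM in the 2 libraries and called at 1.5-fold, 3 members (Hoxa3, Hoxb2 and Hoxa5) were measured, 0 were called higher in KO cells and 2 lower. Over all 7720 genes measured, 11.8% were called higher and 10.8% lower, so calls of this size were common between these libraries.

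Some of these genes overlap others in the annotation, which may affect their counts. The span of Hoxa3 on chromosome 6 (chr6:52169062-52213336, minus strand) includes Hoxa4, Hoxa5 and Hoxa6, though no annotated exon of Hoxa3 overlaps theirs. Hoxb2 (chr11:96350525-96354012, plus strand) lies inside the antisense gene Hoxb3os (chr11:96343072-96354691, minus strand), with 953 exonic bases in common, and Hoxb3 (chr11:96323326-96347930) shares 2250 exonic bases with it. The shared bases are 27.3% of the exonic bases of Hoxb2 and 52.9% of those of Hoxb3. The sources used here do not state whether strand was used in counting. Without it, molecules from the shared bases cannot be told apart from those of Hoxb3os. Hoxb3os itself had 33.9 CPM in control and 19.4 CPM in KO cells, a ratio of 0.572 (0.511 to 0.639). Hotairm1, a noncoding RNA of the Hoxa cluster, had 69.4 and 67.2 CPM and a ratio of 0.969 (0.905 to 1.04). Hoxa3 and Hoxaas3, its antisense gene, share 297 exonic bases, and Hoxaas3 had 2.95 and 3.80 CPM (59 and 117 UMIs), far below Hoxa3. Hoxa7 shares 586 exonic bases with Hoxaas3, which is 20.4% of its exons, and its 3 and 22 UMIs are fewer than those of Hoxaas3. Hoxd4 shares 388 exonic bases with Hoxd3 on the same strand and 347 with the antisense gene Hoxd3os1.

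Posterior paralogs showed the opposite order from low paralogs, on few molecules. Groups 6 to 13 had 14 UMIs in control and 76 in KO cells, or 0.700 and 2.47 CPM, with a ratio of 3.53 (1.98 to 6.76). Hoxa7, Hoxb6 and Hoxb7, genes of the thoracic trunk, made up most of them, with 3, 7 and 2 UMIs in control and 22, 22 and 12 in KO cells. The carriers were rare: 13 of 1692 control cells (0.768%, 0.410 to 1.31) and 46 of 1919 KO cells (2.40%, 1.76 to 3.18). Of these carriers, 3 of 13 and 2 of 46 were Dlx/Msx-positive.

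Almost all carriers also held a UMI of groups 1 to 5, 13 of 13 in control and 43 of 46 in KO cells. At an equal depth of 5000 UMIs, a UMI of groups 6 to 8 was found in 6 of 1602 control cells (0.375%) and 20 of 1902 KO cells (1.05%). One KO cell of cluster 8 held 6 UMIs of Hoxd11 and 2 of Hoxd10, 9 of groups 9 to 13 in all. Without that cell, the ratio for groups 6 to 13 was 3.11 (1.73 to 6.00), and groups 9 to 13 had 1 UMI in control and 4 in KO cells. Unthinned, that share was 0.709% in control and 2.24% (1.63 to 3.01) in KO cells, beside 1.82% (0.670 to 3.92) in the 330 control cells without eGFP, which hold immune markers and have a median of 3750 UMIs. In those cells 5 of the UMIs were of Hoxa7, all in cluster 6, which is led by Lyz2. That cluster held 761499 of the 1318888 UMIs of the cells without eGFP. Whether this Hoxa7 RNA was their own was not tested, so these cells give no level of free RNA for it. Neither share is above that of the cells without eGFP beyond counting error. Those cells are of another kind, of the control library and of lower depth, so this comparison gives no background level. Whether the few molecules in SMCs are their own was not tested.

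Most cells showed no Hox RNA at matched depth, as single-cell counts are sparse. After thinning each cell to 5000 UMIs, which left out 90 control and 17 KO cells, a Hox UMI was found in 769 of 1602 control cells, or 48.0% (45.5 to 50.5). In KO cells the share was 654 of 1902, or 34.4% (32.2 to 36.6). Unthinned shares were 73.2% and 67.9%. In control cells without eGFP the shares were 2 of 65 (3.08%) thinned and 23 of 330 (6.97%) unthinned. A UMI of groups 1 to 3 was found in 39.2% of control and 24.6% of KO cells, and in 0 of 65 cells without eGFP, which allows a share of up to 4.62%.

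Groups 4 and 5 gave 15.3% (13.6 to 17.1) in control and 13.5% (12.0 to 15.1) in KO cells, beside 2 of 65 (3.08%, 0.375 to 10.7) in cells without eGFP. Unthinned, 17 of those 330 cells (5.15%, 3.03 to 8.12) held such a UMI, against 28.3% of control cells with eGFP. Of these 17, 15 held Hoxb4. Its level was 11.4 CPM (6.37 to 18.8) in cells without eGFP and 8.99 CPM in control SMCs, so it was not higher in SMCs. Whether the Hoxb4 RNA of the cells without eGFP was their own was not tested, so they give no level of free RNA for it. Hoxa3 and Hoxb2 had no UMI in the 330 cells. Hoxa3 was present in 20.4% of control and 12.7% of KO cells at that depth, and Hoxb2 in 16.1% and 7.05%. Hoxa3 and Hoxb2 occurred together in 3.43% of control cells, where the product of their shares is 3.29%, and in 0.999% of KO cells, where it is 0.896%. Of the 6 pairs among Hoxa3, Hoxb2, Hoxa5 and Hoxb4, the one furthest above its product was Hoxb2 with Hoxa5 in KO cells, at 0.946% (18 cells) against 0.426%. In control cells that pair lay below its product, at 0.749% (12 cells) against 1.02%, and Hoxb2 with Hoxb4 lay above it, at 1.12% (18 cells) against 0.724%.

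The spread between cells was near that of genes of a like level for most named members. The variance to mean ratio of thinned counts was 1.02 for Hoxa3 and 1.07 for Hoxb2 in control cells, beside medians of 1.02 and 1.02 over genes with a like mean, and 1.69 for Dlx5. In KO cells it was 1.05 for Hoxa3, 1.05 for Hoxb2 and 1.80 for Dlx5. In both libraries Hoxa3 and Hoxb2 thus lay below the 95th percentile of genes of their level (1.18 and 1.19 in control cells), and Dlx5 lay above its own (1.19 in control cells). Hoxa5 was the exception among the 7 members examined: in control cells its ratio of 1.144 lay just above its 95th percentile of 1.137, while in KO cells it was 1.11, below the percentile of 1.15.

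Dlx/Msx-positive cells numbered 256 in the control library (15.1%) and 113 in the KO library (5.89%). Near the limit, 72 positive control cells held exactly 2 molecules of the 3 genes and 129 low cells exactly 1, and the numbers were 47 and 116 in KO cells. Median UMIs were 10352 in positive and 11984 in low control cells, and 16072 and 14909 in the KO library. These classes describe the Hox RNA of cells with arch crest genes beside that of the remaining SMCs, and they were not matched for depth.

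In the control library the positive cells held more Hox RNA, of low and of trunk-level paralogs alike. The sums were 180 CPM (511 UMIs) in positive and 126 CPM (2161 UMIs) in low cells, a ratio of 1.43 (1.30 to 1.58). The median gene was also 1.12-fold higher in positive cells (0.16 on the log2 scale), and relative to it the ratio was 1.29 (1.16 to 1.42). Groups 1 to 3 were at 131 and 96.1 CPM, a ratio of 1.36 (1.21 to 1.52), and groups 4 and 5 at 48.4 and 29.1 CPM, a ratio of 1.66 (1.37 to 2.01). Group 4 had the largest of the ratios of groups 2 to 5, 2.14 (1.66 to 2.75), with 88 UMIs in positive cells. Classing cells on thinned counts brought the ratio of groups 1 to 3 to 1.16 (0.986 to 1.36), an interval that includes 1.

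Hoxa3 had 60.0 CPM in positive and 41.3 CPM in low control cells, a ratio of 1.45 (1.22 to 1.72). Hoxb2 had 42.0 and 36.7 CPM, a ratio of 1.15 (0.934 to 1.40) that includes 1. Hoxa4, a paralog of the neck levels, had 13.4 and 5.47 CPM, a ratio of 2.45 (1.64 to 3.61), and Hoxb4 had 13.8 and 8.21 CPM, a ratio of 1.68 (1.15 to 2.41). The second arch gene Hoxa2 stood at 13.1 and 6.69 CPM (1.95, 1.31 to 2.85), and Hoxa5 at 16.2 and 13.2 CPM (1.23, 0.875 to 1.69). Hoxd4 had 3.89 CPM (11 UMIs) and 0.815 CPM (14 UMIs), a ratio of 4.77 (1.96 to 11.3).

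Hoxa genes were higher in positive cells by a ratio of 1.57 (1.38 to 1.78) as a cluster and Hoxb genes by 1.22 (1.04 to 1.42). The Hoxb interval includes the ratio of the median gene, 1.12, so Hoxb genes were not higher than the median gene beyond counting error. The Hoxa interval lies above it. Of 4 measured members, Hoxa3, Hoxb2 and Hoxa5 had at least 10 CPM in both classes, and 0 of these 3 were called in either direction, beside 11.1% of 7751 genes higher and 3.63% lower. The other one, Hoxb4, was called higher, but it reached the mean of 10 CPM only through the positive cells. With the class limit at 4 molecules, Hoxb4 had a ratio of 1.10 and was no longer called.

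In the KO library the summed Hox level of the classes did not differ beyond counting error. The sums were 96.7 CPM (189 UMIs) in positive and 87.1 CPM (2510 UMIs) in low cells, a ratio of 1.11 (0.953 to 1.29). Hoxa3 had 31.2 and 25.0 CPM (1.25, 0.944 to 1.62), Hoxb2 14.3 and 15.6 CPM (0.918, 0.603 to 1.35) and Hoxb4 5.63 and 8.95 CPM (0.629, 0.310 to 1.14). Hoxa4 stood at 8.70 and 5.52 CPM (1.58, 0.897 to 2.61) and Hoxa5 at 15.9 and 12.1 CPM (1.31, 0.875 to 1.89). The intervals of these genes include 1. As a cluster, Hoxa genes were higher in positive KO cells by a ratio of 1.28 (1.06 to 1.53), an interval that excludes 1, while the Hoxb cluster stood at 0.846 (0.637 to 1.10). Hoxa5 and Hoxb3 had ratios further above 1 in KO cells (1.31 and 1.28) than in control cells (1.23 and 1.11). Of 3 measured members, 0 were called in either direction, beside 7.06% of 7815 genes called higher and 3.76% lower. Whether the split differs between genotypes was not tested. Summed pericyte markers stood at 2955 CPM in positive and 512 CPM in low control cells and at 498 and 370 CPM in KO cells, and their part in the Hox difference was not tested.

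**Figure D3:**
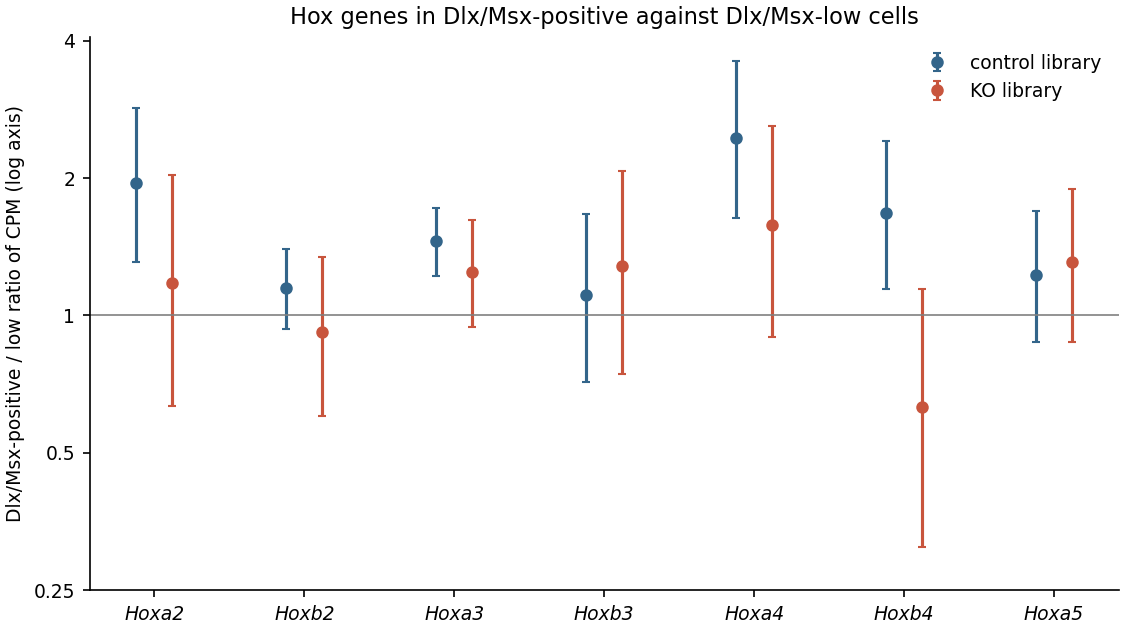
Ratio of CPM between Dlx/Msx-positive and Dlx/Msx-low cells (log axis) for 7 Hox genes with over 100 UMIs, in the control (blue) and KO (red) library, with exact 95% intervals for counting error. Control ratios lie above 1 for all 7, from 1.11 for Hoxb3 (0.995 relative to the median gene) to 2.45 for Hoxa4. The control intervals of Hoxb2, Hoxb3 and Hoxa5 include 1. KO ratios run from 0.629 for Hoxb4 to 1.58 for Hoxa4, and KO intervals, which rest on fewer UMIs, all include 1.

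The lower Hox level of KO cells was present in each class. Among Dlx/Msx-low cells, which were 84.9% of control and 94.1% of KO cells, the summed ratio was 0.692 (0.653 to 0.734). Groups 1 to 3 stood at 0.580 (0.541 to 0.622) there and groups 4 and 5 at 0.988 (0.883 to 1.11), so the difference between low and trunk-level paralogs was as large within this class as in all cells. Hoxa3 had 41.3 CPM in control and 25.0 CPM in KO cells of the class (0.606, 0.546 to 0.673), and Hoxb2 36.7 and 15.6 CPM (0.426, 0.376 to 0.481). Hoxa4 stood at 5.47 and 5.52 CPM (1.01, 0.776 to 1.32) and Hoxb4 at 8.21 and 8.95 CPM (1.09, 0.885 to 1.35). Groups 6 to 13 had 10 UMIs in control and 74 in KO cells of the class. Of 3 measured members, 0 were called higher and 2 lower, beside 12.6% and 10.0% of 7671 genes.

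Among Dlx/Msx-positive cells the summed ratio was 0.536 (0.451 to 0.635). Here groups 4 and 5 were lower in KO cells as well, with 48.4 CPM in control and 31.7 CPM in KO cells, a ratio of 0.656 (0.478 to 0.892). Group 4 was at 0.511 (0.328 to 0.777) and group 5 at 0.917 (0.565 to 1.47). Hoxa3 had 60.0 and 31.2 CPM (0.520, 0.382 to 0.701), Hoxb2 42.0 and 14.3 CPM (0.341, 0.217 to 0.518) and Hoxb4 13.8 and 5.63 CPM (0.409, 0.189 to 0.814). Hoxa2 had 13.1 and 7.17 CPM (0.548, 0.274 to 1.04) and Hoxa4 13.4 and 8.70 CPM (0.648, 0.343 to 1.18). Of 5 measured members, Hoxa3, Hoxb2 and Hoxa5 had at least 10 CPM in both libraries, and of these 3, 0 were higher and 2 lower (Hoxa3 and Hoxb2), beside 13.9% and 17.4% of 8053 genes. Hoxa2 and Hoxa4 were also past 1.5-fold, but they reached the mean of 10 CPM only through the control cells, where they were higher, and their intervals include 1. Single genes rest on few molecules here: over the alternatives the ratio of Hoxa2 ranged from 0.0925 to 0.645, that of Hoxa4 from 0.380 to 0.680, that of Hoxb2 from 0.216 to 0.411 and that of Hoxb3, which was not called, from 0.605 to 1.73.

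Clusters were formed on all kept cells of both libraries without any Hox, Dlx or Msx gene among the variable genes, so that Hox levels did not set them. Of 9 clusters, 5 held at least 50 eGFP-positive cells of a library, and each of these was almost entirely of 1 library: clusters 1 and 2 of control, clusters 5, 8 and 9 of KO. Genotype and library cannot be told apart in them. Cluster 2 (343 cells, led by Gpc3, Adamtsl1 and Msx2) was 67.9% Dlx/Msx-positive and cluster 9 (100 cells, led by Inmt, Megf10 and Coch) 70.0%, against 1.72% in cluster 1, 1.91% in cluster 5 and 3.18% in cluster 8.

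The summed Hox level was 181 CPM (167 to 196) in cluster 2 and 124 CPM (119 to 129) in cluster 1 of the control library. In the KO library it was 96.3 CPM (81.2 to 113) in cluster 9, 92.0 CPM (87.6 to 96.6) in cluster 5 and 80.3 CPM (75.2 to 85.6) in cluster 8. All 3 KO clusters thus lay below both control clusters. Cluster 2 against cluster 1 had a ratio of 1.46 (1.34 to 1.60) and cluster 9 against cluster 5 one of 1.05 (0.876 to 1.24), and the difference between these ratios was not tested. The summed KO ratio held genes on both sides: Hoxa5 was at 19.4 CPM in cluster 9 and 11.6 CPM in cluster 5 (1.67, 1.09 to 2.47) and Hoxa4 at 10.0 and 5.83 CPM (1.72, 0.929 to 2.97), whereas Hoxb2 was at 12.7 and 16.9 CPM (0.751, 0.446 to 1.19). By gene, cluster 2 against cluster 1 gave 1.98 (1.41 to 2.75) for Hoxb4, 2.09 (1.40 to 3.06) for Hoxa4 and 1.22 (1.02 to 1.46) for Hoxb2. Hoxd4 was at 4.62 CPM (16 UMIs) in cluster 2 and 0.547 CPM (9 UMIs) in cluster 1, a ratio of 8.45 (3.52 to 21.7), and at 2.01 CPM (3 UMIs) in cluster 9 and 0.114 CPM (2 UMIs) in cluster 5.

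**Figure D4:**
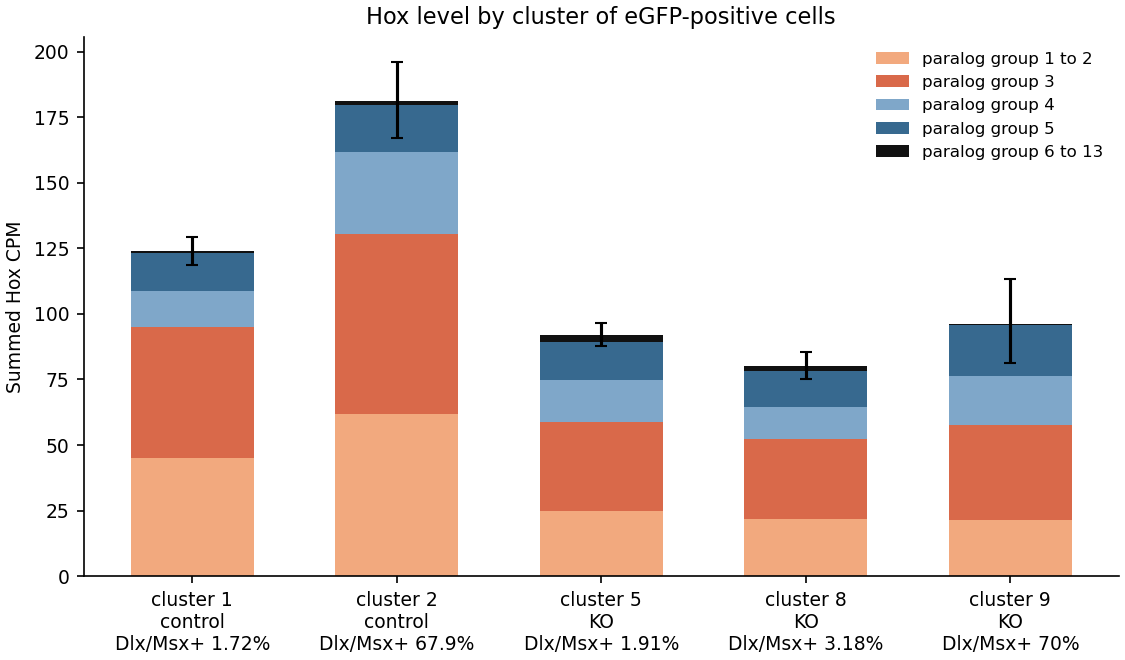
Summed Hox CPM in the 5 clusters of eGFP-positive cells, stacked by paralog group (bars from 0; whiskers are exact 95% Poisson intervals of the sum), with the library and the share of Dlx/Msx-positive cells below each bar. The sums are 124 and 181 CPM in the control clusters and 92.0, 80.3 and 96.3 CPM in the KO clusters.

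Cluster 8 was led by Cytl1, Spp1, Igf1 and Dcn, with Dcn at 828 CPM and Myh11, the smooth muscle myosin heavy chain, at 419 CPM. Against cluster 5 its summed Hox ratio was 0.873 (0.804 to 0.946). Hoxb4 was at 6.90 CPM in cluster 8 and 10.2 CPM in cluster 5 (0.678, 0.515 to 0.886), whereas Hoxa5 was at 12.7 and 11.6 CPM (1.09, 0.879 to 1.36). Hoxb2 and Hoxa3 were also lower in KO cells without cluster 8. Cluster 5 alone against control cluster 1 gave 0.468 (0.406 to 0.539) for Hoxb2 and 0.651 (0.577 to 0.734) for Hoxa3. Myh11 also differed between clusters 5 and 1, at 1168 and 2633 CPM, and its bearing on these ratios was not tested. In that pair group 4 stood at 1.17 (0.977 to 1.40), and Hoxb4 was higher in the KO cluster, 10.2 against 7.72 CPM (1.32, 1.04 to 1.67). Groups 6 to 13 had 51 UMIs in cluster 5 and 9 in cluster 1.

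The authors' deposited table of mean expression per cluster, in counts per 10000, listed 14 of the 39 members. In the authors' deposited table the member values of the control cluster with the highest Dlx5 mean (1.54) summed to 1.93, and those of control clusters 0 and 1 to 1.30 and 1.28. Of its 7 KO columns, 5 had sums from 0.627 to 1.11 and 2 had 0. The 2 with 0 also had a Myh11 mean of 0, with Cd79a at 5.92 in cluster 7 and Lyz2 at 2.53 in cluster 6. The remaining 6 control columns of the authors' deposited table had sums from 0.0538 to 1.21, and their Myh11 means were 0.0988 to 4.64, against 17.3 to 24.4 in the 3 control columns named. The 5 KO columns with Myh11 thus lay below those 3, but 4 of them lay above control cluster 3 (0.715 in the authors' deposited table) and all below control cluster 2 (1.21). Between columns of the same cluster number, KO was higher in cluster 3 (0.919 against 0.715). It was lower in clusters 0 (1.11 against 1.30), 1 (0.627 against 1.28), 2 (0.846 against 1.21) and 4 (0.844 against 1.93). The number of cells in a column is not in the table.

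The partners and regulators of Hox proteins were examined as lists over all eGFP-positive cells. The 9 cofactors of the PBX, MEIS and PKNOX families, which bind DNA with Hox proteins, had 6 measured members, with 1 higher in KO cells (Meis3, 21.1 to 32.0 CPM, ratio 1.52) and 0 lower. Their median log2 ratio was 0.02, beside -0.01 over all genes. Of 20 Polycomb and trithorax regulators, which keep Hox genes silent or active, 17 were measured, with 1 higher (Phc2, 21.4 to 41.7 CPM, ratio 1.95) and 2 lower (Jarid2 among them, 12.9 to 8.45 CPM, ratio 0.655). The list's median was -0.23.

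Of 15 genes of the retinoic acid axis, the signal that sets Hox boundaries in the embryo, 7 were measured and 1 was higher. That gene was Aldh1a1, a retinaldehyde dehydrogenase, at 0.850 CPM in control and 70.4 CPM in KO cells. Of 26 cardiac neural crest and outflow genes, 11 were measured, with 3 higher in KO cells (Prrx1 1.70, Sox9 1.63 and Foxc2 1.50) and 2 lower (Prrx2 0.174 and Mef2c 0.654). Of 20 mesoderm genes, 3 were measured, and Osr1 (342 to 71.1 CPM, ratio 0.208) and Foxf1 (23.4 to 3.57 CPM, ratio 0.152) were lower. Shares called over all genes were those given above, 11.8% higher and 10.8% lower. Aldh1a1 reached the mean of 10 CPM only through the KO cells, and genes such as Foxf1 and Jarid2 only through the control cells. Such genes could be called only in the direction given.

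Between the classes of the control library, 3 of 6 measured cofactors were higher in positive cells, among them Meis1 (48.4 against 30.4 CPM, ratio 1.59) and Pbx2 (15.9 against 10.2 CPM, 1.56). Their median log2 ratio was 0.46, beside 0.16 over all genes. Over all genes 11.1% were called higher and 3.63% lower in this comparison. Of 15 measured crest and outflow genes, 8 were higher in positive cells, from Msx1 at 2.20 to Dlx1 at 22.3, and 1 was lower, Hand2, a gene of the heart fields and arches, at 32.5 against 70.5 CPM (0.461). Of 4 measured genes of the mesoderm list, 3 were higher, Pax9 (26.5 against 1.86 CPM), Foxf1 (72.8 against 15.3 CPM) and Osr1 (713 against 280 CPM). Pax9 reached the mean of 10 CPM only through the positive cells, so it could not have been called lower. The same holds for any of the 8 crest and outflow genes with under 10 CPM in low cells. In the KO library 0 of 6 cofactors were called, and of 12 crest genes 5 were higher and 2 lower, with Hand2 again at 20.0 against 51.0 CPM (0.391) and Prrx2 at 54.8 against 6.87 CPM, beside 7.06% and 3.76% over all genes. Prrx2 likewise reached the mean of 10 CPM in the KO library only through the positive cells. Dlx1, Dlx2 and Msx1 share their families with the genes that made the classes.

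Cells that held trunk-level Hox RNA were compared with cells that held none, among Dlx/Msx-low cells thinned to 5000 UMIs. Only 20 control and 29 KO cells held at least 2 UMIs of groups 4 to 13, so that 1 UMI in these cells was worth 10.0 and 6.90 CPM. Of 4374 genes compared, 161 were over 1.5-fold higher in such cells in both libraries, 106 lower in both, and 163 went opposite ways. With 1 UMI as the limit (189 control and 256 KO cells), 2 of 4641 genes were higher in both, Tango2 and Tbc1d2b, 1 was lower, Dnajc15, and 1 went opposite ways. No gene is therefore put forward as going with trunk-level Hox RNA at this depth.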

How the data were processed

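Single-cell RNA was measured in 2 libraries, 1 control and 1 KO. The authors deposited raw UMI counts per gene and cell, and a table of their own cluster averages. Each column of that other table sums to 10000, and its values were read as linear means. The submitters' processing notes name Seurat 2.0, Cell Ranger, bcl2fastq and build mm10. The sources used here do not state how cells were called or whether doublets had been removed. Cells with at least 500 genes and at most 10% mitochondrial UMIs were kept (2042 control, 1936 KO), and those with at least 5 eGFP UMIs were described. Counts were summed per group and divided by the group's total. Ratios of CPM have exact conditional binomial intervals, shares Clopper-Pearson intervals and CPM exact Poisson intervals, all at 95% and for counting error only. UMIs were thinned to 5000 per cell with a fixed seed for shares. A count of 0 was taken to allow up to 3 counts. Clustering used scanpy 1.11.5 (2000 variable genes without the 5 Hox, Dlx and Msx genes among them, 30 principal components, 15 neighbours, Leiden resolution 0.5). Scrublet called 6 control and 6 KO cells doublets, too few to rely on, and 1 alternative drops them. In Poisson counts simulated from the summed means, with 2-fold changes in 200 genes, most of the changes were recovered. Such draws hold no spread between cells or animals, so they check only how the intervals were calculated.

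Named members are those with at least 10 CPM in any library and class, and the remaining ones are given by range and count. The genes that go with trunk-level Hox RNA are given as counts only, since too few cells carried them. Gene positions are from GENCODE vM21, which held all 39 members. The values of some genes are not reported here. Members, lists and classes were chosen with earlier results of these data known. Alternatives changed the eGFP, mitochondrial, class, expression and fold limits, the scaling, the weight of cells, the thinning and the clustering. After the data were seen, leaving out the 5% of cells with most UMIs, KO cluster 8 and shared barcodes was added.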

Additional observations from a re-analysis of the deposited data

Results flagged for a closer look

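Hoxb2 and Hoxb4 had Dlx/Msx-positive to low ratios on opposite sides of 1 in the 2 libraries. Hoxb2 stood at 1.15 (0.934 to 1.40) in control and 0.918 (0.603 to 1.35) in KO cells, and Hoxb4 at 1.68 (1.15 to 2.41) in control and 0.629 (0.310 to 1.14) in KO cells. With 1 library per genotype, the difference was not tested. The KO ratio of Hoxb4 rests on 11 UMIs in positive cells.

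Control cells without any eGFP UMI, which were outside the comparisons, held Hox UMIs above the limit that a count of 0 allows (2.27 CPM). Hoxb4 stood at 11.4 CPM (15 UMIs) and Hoxa7 at 3.79 CPM (5 UMIs). The Hoxb4 UMIs were spread over clusters 3, 4 and 6, which lead with genes of NK cells, B cells and myeloid cells, with 3, 2 and 10 UMIs. All 5 Hoxa7 UMIs were in cluster 6. Hoxa3 and Hoxb2, the most abundant members in SMCs, had 0 UMIs in the 330 cells.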

How the results depend on the processing

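No ratio called at 1.5-fold changed direction under any alternative run. The summed KO to control ratio ranged from 0.620 to 0.691, Hoxa3 from 0.526 to 0.607 and Hoxb2 from 0.407 to 0.442. Of all 440 ratios under an alternative, 408 kept their side of 1, and the other 32 were of ratios not called at 1.5-fold. Of the 44 sums over all members among them, 43 kept their side of 1, and the remaining one was the KO class ratio of 1.11 with a class limit of 4 molecules. With a mitochondrial limit of 5%, the summed KO to control ratio was 0.620, groups 1 to 3 stood at 0.512 and, in Dlx/Msx-low cells, at 0.533. Between control classes, median-of-ratios scaling gave a summed ratio of 1.29, a class limit of 4 molecules 1.26 (groups 4 and 5: 1.32), and classes from thinned counts 1.16 for groups 1 to 3. Shares of cells with a Hox UMI were 31.0% in control and 23.3% in KO cells at 3000 UMIs and 73.2% and 67.9% without thinning.

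The counts of called members rest on few genes. Control classes had 2 members higher at 5% mitochondrial UMIs and with thinned classes, 4 at a minimum of 3 CPM, and 0 at 20 CPM or 2-fold. KO classes had 1 higher at 5% mitochondrial UMIs, with cells weighted equally, at 3 CPM, at 4 molecules and with thinned classes, and 1 lower in the last 3. For KO against control, 1 was lower at 2-fold in all cells, in low cells and in positive cells. Positive cells had 2 lower at 20 CPM and at 4 molecules, and 1 higher at 5% mitochondrial UMIs, at 4 molecules and with thinned classes. Genes with trunk-level Hox UMIs numbered 2 higher and 1 lower with 1 UMI as the limit, and 381 and 237 at 3000 UMIs. No paired analysis was possible because each genotype has 1 library. In Dlx/Msx-positive cells the KO to control ratio of Hoxa2 ranged from 0.0925 to 0.645 and that of Hoxb3 from 0.605 to 1.73. Depth limits groups 6 to 13 and all KO Dlx/Msx-positive values, which rest on 189 Hox UMIs.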
